A study of Mus musculus with 24 samples.

Results

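The genes described here are 10 members of the JAK-STAT pathway and its SOCS inhibitors: the kinases Jak1 and Jak3, the transcription factors Stat3, Stat4, Stat5a, Stat5b and Stat6, and the inhibitors Socs1, Socs3 and Cish. They were taken by name, not by a threshold on their values, out of 35817 gene symbols to which the transcripts were summed, and all 10 passed the filter on low counts. RNA was sequenced from T cells sorted out of mouse spleen, in 24 libraries that fall into 8 groups of 3. Donors were C57BL/6 wild-type (WT) mice or Cat-Tg mice, which carry a transgenic N-terminally truncated human β-catenin on the same background, and CD4+ and CD8+ cells were taken from both. The pre-tx libraries came from freshly isolated donor cells. The post-tx libraries came from donor cells recovered on day 7 after transplant into lethally irradiated BALB/c recipients, each of which had received CD4+ and CD8+ T cells of the same donor genotype mixed 1:1, plus T cell-depleted bone marrow from WT mice. The 3 replicates of a group were separate mice, donors pre-tx and recipients post-tx, and CD8 and CD4 libraries of the same genotype and time were sorted from the same 3 mice. The WT groups are thus the controls for the transgene, and the pre-tx groups those for the transplant, which changed host, time and irradiated surroundings together. The sample titles give genotype, cell type, time and replicate and name no library series. Whether the genotypes were processed apart could not be told from them.

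Cytokine receptors have no kinase of their own. Janus kinases bound to the receptor tails are activated when the cytokine binds, and they phosphorylate STAT proteins, which then enter the nucleus and bind DNA. In T cells JAK1 and JAK3 serve the receptors that share the common gamma chain, among them those for IL-2, IL-7 and IL-15, which signal mainly through STAT5, and IL-4, which signals through STAT6. STAT3 follows IL-6, IL-10 and IL-21, and STAT4 follows IL-12. SOCS1, SOCS3 and CIS (the product of Cish) are made in response to STAT activity and restrain the same receptors, so their transcripts are widely read as a record of recent cytokine signalling.

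In GENCODE M21 (GRCm38) the kinases lie at chr4:101152367-101265282 (Jak1, minus strand) and chr8:71676296-71690575 (Jak3, plus strand). Stat5b (chr11:100780731-100850724, minus), Stat5a (chr11:100859351-100885169, plus) and Stat3 (chr11:100885098-100939540, minus) are neighbours, and the ends of Stat5a and Stat3 overlap on opposite strands, where reads cannot be told apart without strand. Stat4 lies at chr1:51987148-52107189 (plus) and Stat6 at chr10:127642986-127660957 (plus). The inhibitors are Socs1 (chr16:10782240-10785536, minus), Socs3 (chr11:117966079-117970047, minus) and Cish (chr9:107296026-107302784, plus).

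Levels are given as CPM, the count scaled to a fixed library total, after scaling by the trimmed mean of M values (TMM), which corrects for differences in RNA composition. The libraries held 11135713 to 50519825 estimated counts (median 27062440), so that 3 counts corresponded to 0.0594 to 0.269 CPM, far below every member value. A gene was called in a comparison when its adjusted p, from edgeR's quasi-likelihood test with Benjamini-Hochberg adjustment over all genes tested, was at most 0.05. Because these are bulk samples, fewer cells of a type and less RNA per cell cannot be told apart. Of Cd8a and Cd4 counts together, Cd8a made up 99.3 to 99.9% in Cat-Tg CD8 pre-tx and 1.27 to 3.39% in Cat-Tg CD4 pre-tx, and at least 99% or at most 0.635% in the post-tx groups. In the WT CD8 libraries labelled pre-tx the share was 50 to 63.9% and in the corresponding WT CD4 libraries 52.4 to 65.4%, against both labels. In these 6 libraries 10 B cell markers (Cd79a, Ms4a1 and others) summed to 4530 to 7970 CPM, against 169 to 636 CPM in Cat-Tg pre-tx and 48.6 to 119 CPM in the post-tx libraries, and 12 T cell markers (Cd3e, Lck and others) to 1850 to 3200 CPM, against 6210 to 9670 CPM in Cat-Tg pre-tx. No B cell marker was at 0 throughout any group. Over all libraries 6 red cell markers summed to 270 to 24600 CPM and 4 NK cell markers to 3.52 to 118 CPM. Their part in the results that use the WT pre-tx libraries was not tested, and CD8 and CD4 were not compared within WT pre-tx. In WT CD8 post-tx, replicate 1 held the lowest and replicate 2 the highest value for 8 of the 10 members, and the reverse for the other 2, Jak1 and Stat4.

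**Figure D1:**
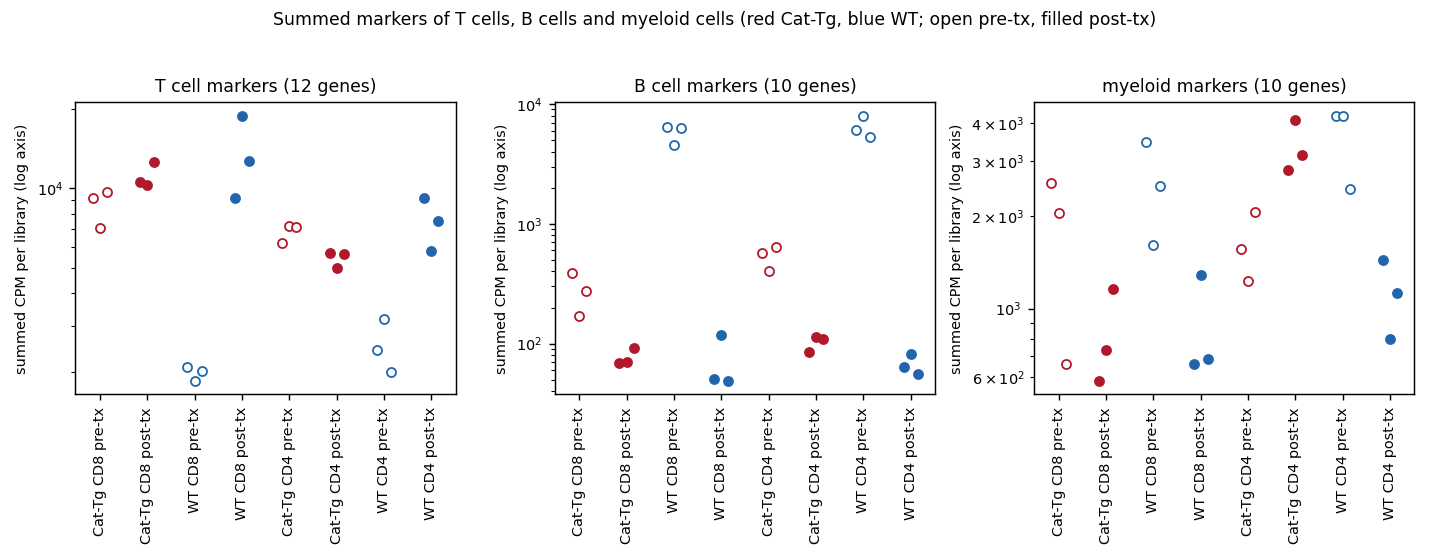
Each point is 1 library; the vertical axes give the summed CPM, on a log scale, of 12 T cell markers, 10 B cell markers and 10 myeloid markers, and the horizontal axis the 8 groups. The B cell sums of the WT pre-tx libraries (4530 to 7970 CPM) stand above all others, and their T cell sums (1850 to 3200 CPM) below all others.

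Per length, in TPM (the share of transcripts, scaled to a fixed total), which can be compared between genes of the same group, Jak1 had the highest mean of the 10 genes in Cat-Tg CD8 pre-tx (133 TPM), Cat-Tg CD4 pre-tx (112 TPM), Cat-Tg CD4 post-tx (160 TPM), WT CD4 post-tx (166 TPM) and the WT CD8 libraries labelled pre-tx (146 TPM). Jak3 had the highest in Cat-Tg CD8 post-tx (153 TPM, with Jak1 at 146 TPM) and WT CD8 post-tx (104 TPM), and Stat6 in the WT CD4 libraries labelled pre-tx (89.8 TPM). Cish was the lowest of the 10 in Cat-Tg CD8 pre-tx (2.73 TPM) and in the WT CD8 libraries labelled pre-tx (5.4 TPM) and WT CD4 pre-tx (4.81 TPM), and in Cat-Tg CD4 pre-tx it stood beside Socs1 (9.21 and 9.18 TPM). Across the 8 groups the mean CPM of Cish varied most, 20.2-fold between the highest and lowest group, followed by Stat4 (8.65-fold), Jak3 (6.67-fold) and Socs1 (5.76-fold), while Stat5b (2.07-fold), Socs3 (2.27-fold) and Stat6 (2.37-fold) varied least.

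**Figure D2:**
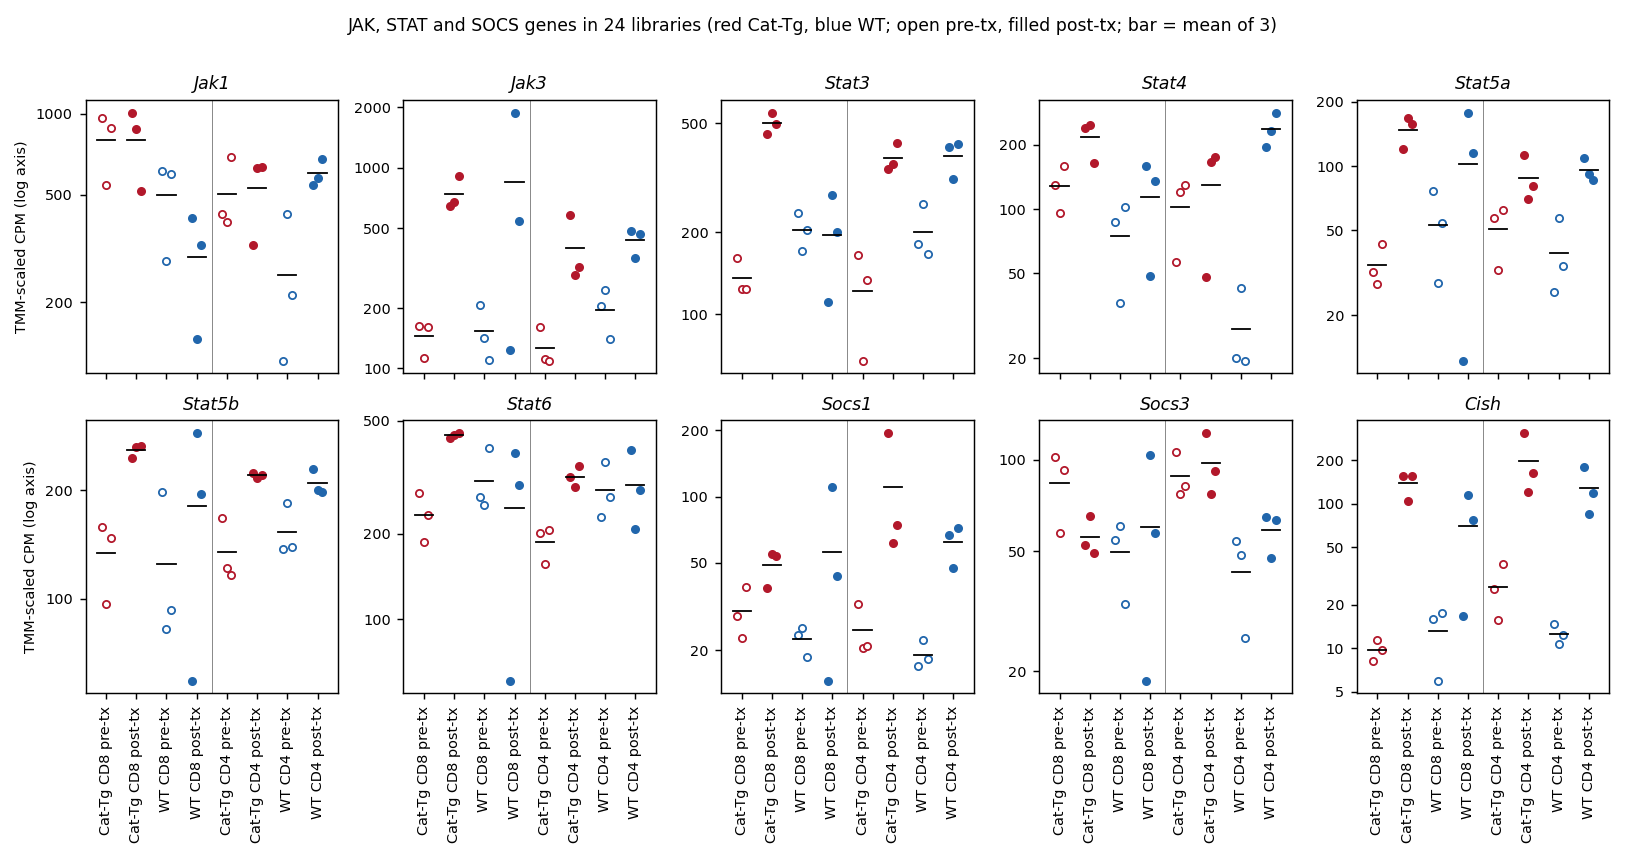
Each point is 1 library and each bar the mean of 3; the vertical axes give TMM-scaled CPM on a log scale and the horizontal axis the 8 groups, in red for Cat-Tg and blue for WT, open for pre-tx and filled for post-tx. Cish stands at 5.94 to 38.3 CPM in the pre-tx libraries and at 16.8 to 309 CPM in the post-tx libraries, and Stat4 is lowest in the WT CD4 libraries labelled pre-tx (19.4 to 42.8 CPM).

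The transplant was the contrast with the most member calls, and every member called in it was higher post-tx. Many other genes were called in it too. The WT CD8 count, 2 of 10, and the Cat-Tg CD4 count, 4 of 10, are near the share of all genes over both directions. Only in the WT CD4 arm were most of the members called. In Cat-Tg CD8+ cells 3 of 10 were called higher (Jak3, Stat3 and Cish) where 8.72% of all genes tested were called higher and 5.23% lower, and the median log2 fold change was 0.81 for the members and -0.26 for all genes. In the WT CD8 arm, whose pre-tx side is the mixed libraries labelled pre-tx, 2 were higher (Jak3 and Cish), against 13.2% of genes higher and 10.4% lower, with medians of 0.56 and -0.23. In Cat-Tg CD4+ cells 4 were higher (Jak3, Stat3, Socs1 and Cish), against 16.2% of genes higher and 28.9% lower, with medians of 0.48 and -0.38. In the WT CD4 arm, again against the mixed libraries labelled pre-tx, 6 were higher (Jak1, Jak3, Stat4, Stat5a, Socs1 and Cish), against 14.7% of genes higher and 9.61% lower, with medians of 1.03 and -0.13. Of the 12 T cell markers 12 were called higher post-tx in the WT CD4 arm and 10 in the WT CD8 arm, with median log2 fold changes of 1.37 and 2.54, and their part was not tested. No member was called lower by this fit. With the compared libraries alone, however, Socs3 was called lower in Cat-Tg CD8 (-0.83), and without WT CD8 post-tx replicate 1 Jak1 was called lower in WT CD8 (-1.33). At an unadjusted p under 0.05, 4, 3, 4 and 7 members stood in these comparisons in the same order. The scaling matters for the WT CD8 result: scaled by library totals alone, in an alternative added after the data were seen, the median of all genes moved by -1.03 on the log2 scale, the split of all calls went from 2103 higher and 1667 lower to 866 higher and 4136 lower, and neither Jak3 nor Cish was called, while Jak1, Stat3 and Stat6 were called lower. In Cat-Tg CD8+ cells the same scaling turned 1391 higher and 835 lower into 1031 and 1129 and still called Jak3, Stat3 and Cish.

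**Figure D3:**
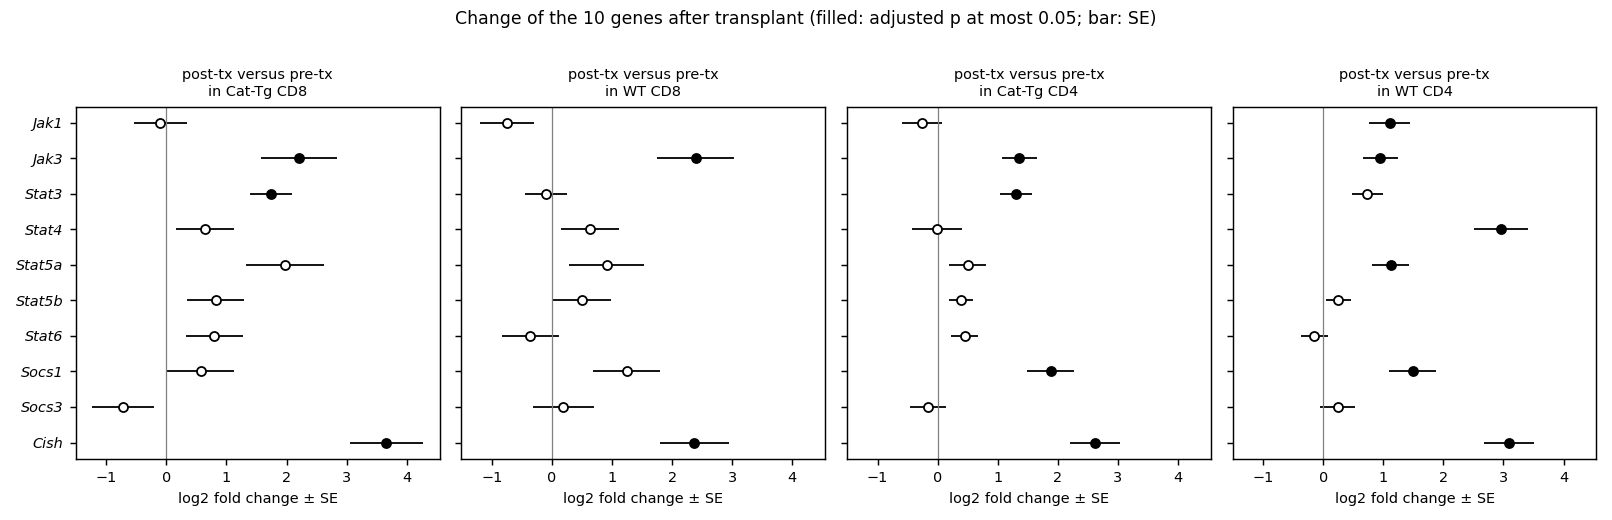
Points are log2 fold changes post-tx over pre-tx of the 10 genes in each of 4 arms, bars their SE, and filled points those with an adjusted p of at most 0.05. Cish is filled in all 4 panels, from 2.37 in WT CD8 to 3.66 in Cat-Tg CD8, and Jak3 in all 4, from 0.95 in WT CD4 to 2.39 in WT CD8.

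Among the kinases, Jak3 was the member called higher post-tx in all 4 arms. JAK3 is the kinase bound to the common gamma chain itself. In Cat-Tg CD8+ cells Jak3 stood at 163, 113 and 160 CPM pre-tx and at 641, 675 and 913 CPM post-tx. The groups did not overlap, and the log2 fold change was 2.21 ± 0.632 (SE, n = 3 against 3, edgeR adjusted p = 0.032). Without any single library of these 6 the call was lost, at log2 fold changes of 2.05 to 2.29. In Cat-Tg CD4+ cells Jak3 rose from 160, 111 and 109 CPM to 581, 291 and 320 CPM, by a log2 fold change of 1.36 ± 0.295 (edgeR adjusted p = 0.0022). WT CD4 post-tx held 485, 354 and 467 CPM against 204, 245 and 140 CPM in the WT CD4 libraries labelled pre-tx, a log2 fold change of 0.95 ± 0.292 (edgeR adjusted p = 0.0268). That call was lost without WT CD4 pre-tx replicate 1 or 3, or WT CD4 post-tx replicate 1 or 3, the lowest log2 fold change being 0.62, and also by DESeq2 and with its size factors, at 0.86. In the WT CD8 arm the 3 post-tx libraries were far apart, at 123, 1880 and 542 CPM, against 207, 142 and 110 CPM pre-tx. The groups overlap, and the log2 fold change of 2.39 ± 0.637 (edgeR adjusted p = 0.013) fell to 0.91 (adjusted p = 0.175) without WT CD8 post-tx replicate 2, and was also no longer called without WT CD8 pre-tx replicate 3. With limma-voom, library totals or the compared libraries alone the call was lost too. Jak3 did not separate the genotypes: Cat-Tg and WT overlapped in each of the 4 comparisons, with log2 fold changes from -0.51 to 0.08.

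Jak1, which pairs with JAK3 on the same receptors and also serves the interferon and gp130 receptors, had another pattern. Cat-Tg CD8+ cells held 963, 543 and 888 CPM pre-tx and 1010, 881 and 517 CPM post-tx. Cat-Tg CD4+ cells held 424, 397 and 691 CPM pre-tx and 327, 632 and 635 CPM post-tx, so that within Cat-Tg the times overlapped in both cell types. WT CD4 post-tx stood at 545, 580 and 682 CPM, above the 121, 424 and 212 CPM of the WT CD4 libraries labelled pre-tx, a log2 fold change of 1.11 ± 0.341 (edgeR adjusted p = 0.0268). The call was lost without WT CD4 pre-tx replicate 1 or 3, or WT CD4 post-tx replicate 2 or 3 (0.76 to 1.55 over the 6 fits that leave out 1 library). WT CD8 held 615, 285 and 600 CPM pre-tx and 410, 146 and 325 CPM post-tx, which overlap. Without WT CD8 post-tx replicate 1, Jak1 was called lower post-tx in WT CD8 (log2 fold change -1.33).

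Among the STATs, Stat3 rose after transplant in both Cat-Tg cell types. In Cat-Tg CD8+ cells it stood at 161, 124 and 124 CPM pre-tx and at 459, 547 and 496 CPM post-tx. The groups did not overlap and the log2 fold change was 1.74 ± 0.356 (edgeR adjusted p = 0.00533). In Cat-Tg CD4+ cells the values were 165, 67.6 and 134 CPM pre-tx and 339, 355 and 425 CPM post-tx, again without overlap, a log2 fold change of 1.3 ± 0.263 (edgeR adjusted p = 0.00139). WT CD4 post-tx held 408, 312 and 421 CPM against 181, 253 and 166 CPM in the WT CD4 libraries labelled pre-tx, also without overlap. The log2 fold change of 0.73 ± 0.26 missed the threshold (edgeR adjusted p = 0.0511). It was called in 3 of 14 alternatives: limma-voom (0.74), the replicate block (0.71) and the compared libraries alone (0.67). In WT CD8 the 3 libraries of each time overlapped, at 235, 170 and 204 CPM pre-tx and 111, 274 and 200 CPM post-tx (log2 fold change -0.1 ± 0.346).

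Whether the genotypes differed in their change across transplant was tested by the interaction of genotype and time, the Cat-Tg effect post-tx minus the Cat-Tg effect pre-tx. In CD8+ cells 1 of 10 members passed, against 10.7% of all genes, and it was Stat3, with a difference of 1.84 ± 0.494 on the log2 scale (edgeR adjusted p = 0.0264). The direct comparison post-tx had Cat-Tg at 459 to 547 CPM above WT at 111 to 274 CPM, without overlap, yet its log2 fold change of 1.43 ± 0.353 did not pass (edgeR adjusted p = 0.054), whereas limma-voom gave 1.49 and DESeq2 1.3, both called. Pre-tx, Cat-Tg CD8 lay below the WT CD8 libraries labelled pre-tx without overlap (log2 fold change -0.41 ± 0.347, edgeR adjusted p = 0.543). The interaction call was lost without Cat-Tg CD8 post-tx replicate 1 or 2, or WT CD8 pre-tx replicate 1 or 3, at differences of 1.71 or more. Beside it stand the B cell sums of the WT CD8 pre-tx libraries, 4530 to 6400 CPM against 169 to 385 CPM in Cat-Tg, and their part was not tested. All genes split into 948 higher and 762 lower in this interaction, and into 2027 and 377 with library totals, which gave Stat3 at 2.66 and added Stat6 at 2.04.

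Stat4, the transcription factor of the IL-12 response, showed the largest difference between the genotypes. Cat-Tg CD4 pre-tx held 56.6, 120 and 130 CPM, and the WT CD4 libraries labelled pre-tx 20.1, 42.8 and 19.4 CPM. The groups did not overlap, and the log2 fold change was 2.06 ± 0.429 (edgeR adjusted p = 0.00309). Post-tx the order was the other way, with 47.8, 166 and 176 CPM in Cat-Tg and 196, 232 and 283 CPM in WT, again without overlap, at a log2 fold change of -0.91 ± 0.415 that did not pass (edgeR adjusted p = 0.185). WT CD4 post-tx stood 2.96 ± 0.444 on the log2 scale above the mixed libraries labelled pre-tx (edgeR adjusted p = 0.000198), while Cat-Tg CD4+ cells stood at -0.01 ± 0.412. The interaction in CD4+ cells was -2.97 ± 0.595 (edgeR adjusted p = 0.00305), the only one of 10 members to pass, against 21.4% of all genes. It passed in all 19 alternatives, from -3.3 to -2.38, but it uses the WT CD4 pre-tx libraries, whose T cell markers summed to 2010 to 3200 CPM against 6210 to 7170 CPM in Cat-Tg CD4 pre-tx and 5800 to 9180 CPM in WT CD4 post-tx. In this interaction all genes split into 1254 higher and 2425 lower, and into 1763 and 1603 with the size factors of DESeq2. In CD8+ cells Stat4 stood at 130, 96.1 and 160 CPM in Cat-Tg pre-tx, 241, 247 and 165 CPM in Cat-Tg post-tx, 87.2, 36.1 and 102 CPM in WT pre-tx and 159, 48.4 and 135 CPM in WT post-tx. No CD8 comparison of Stat4 passed.

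Stat4 reads were assigned mainly to the transcript Stat4-202 (median 76.7% over the 24 libraries) and to Stat4-201 (median 22.1%). The share of Stat4-201 was highest in WT CD8 post-tx replicate 2 (57.8%) and in WT CD4 pre-tx replicate 1 (56.9%). These shares are estimates of the quantification and were not compared between groups.

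Stat5a and Stat5b lie side by side on chromosome 11 and encode near-identical proteins that carry the IL-2, IL-7 and IL-15 signal, and reads that fit both could be split between them, so their separate values are uncertain. Stat5a stood at 31.8, 28.1 and 42.9 CPM in Cat-Tg CD8 pre-tx and at 120, 168 and 157 CPM post-tx, without overlap, a log2 fold change of 1.98 ± 0.647 just outside the threshold (edgeR adjusted p = 0.053). It was called by limma-voom (1.97), by DESeq2 (1.92), without the filter (2.06) and with the compared libraries alone (1.87). In WT CD4 it went from 25.8, 57.2 and 33.9 CPM to 109, 91.8 and 86.1 CPM, a log2 fold change of 1.12 ± 0.309 that passed (edgeR adjusted p = 0.0152) but was lost without WT CD4 pre-tx replicate 1 or 3. Cat-Tg CD4 held 57.1, 32.6 and 62.5 CPM pre-tx and 113, 70.4 and 80.4 CPM post-tx. WT CD8 post-tx ranged from 12.2 to 178 CPM. Stat5b, which had the higher mean TPM of the pair in every group, was called in none of the 11 comparisons between 2 groups. Its means ran from 125 ± 64 CPM (SD, n = 3) in the WT CD8 libraries labelled pre-tx to 259 ± 11 CPM in Cat-Tg CD8 post-tx, with 220 ± 3.28 CPM in Cat-Tg CD4 post-tx and 209 ± 17.7 CPM in WT CD4 post-tx. Post-tx values did not overlap the pre-tx values in Cat-Tg CD8, Cat-Tg CD4 or WT CD4, at log2 fold changes of 0.82, 0.39 and 0.25. In Cat-Tg CD4 it was called higher post-tx by DESeq2 and with its size factors (0.63), with length-scaled TPM (0.63), without the filter (0.71) and with the WT pre-tx libraries left out (0.72), and in Cat-Tg CD8 with the compared libraries alone (0.71).

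Stat6, the IL-4 and IL-13 factor, was also called in none of the 11 by edgeR as fitted here. In Cat-Tg CD4 it was called higher post-tx by DESeq2 and with its size factors (0.69), without the filter and with the WT pre-tx libraries left out (0.78), and in Cat-Tg CD8 with the compared libraries alone (0.69). Its highest mean was 445 ± 9.38 CPM (SD, n = 3) in Cat-Tg CD8 post-tx, where the pre-tx libraries held 278, 187 and 233 CPM. The other groups had means of 188 to 318 CPM, the lowest being Cat-Tg CD4 pre-tx, and WT CD8 post-tx ran from 60.6 to 384 CPM. Pre-tx, all 3 Cat-Tg CD4 libraries (156 to 206 CPM) lay below the WT libraries (230 to 357 CPM) at a log2 fold change of -0.49 ± 0.224 that did not pass (edgeR adjusted p = 0.145).

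Cish, which encodes an inhibitor of IL-2 receptor and STAT5 signalling, had the largest change of the 10 in 3 of the 4 arms. Cat-Tg CD8+ cells went from 8.16, 11.5 and 9.76 CPM pre-tx to 156, 105 and 155 CPM post-tx. The log2 fold change of 3.66 ± 0.612 (edgeR adjusted p = 0.00147) held in all 15 alternatives, from 3.39 to 3.8. Cat-Tg CD4+ cells went from 25.7, 15.6 and 38.3 CPM to 309, 121 and 164 CPM, a log2 fold change of 2.62 ± 0.41 (edgeR adjusted p = 0.000196). WT CD4 post-tx held 179, 84.2 and 119 CPM against 14.8, 10.7 and 12.3 CPM in the WT CD4 libraries labelled pre-tx, a log2 fold change of 3.09 ± 0.419 (edgeR adjusted p = 8.11e-05). In these 3 arms no post-tx library overlapped a pre-tx library. In WT CD8 they overlapped, since post-tx replicate 1 held 16.8 CPM beside 115 and 77 CPM in the other two, against 16, 5.94 and 17.6 CPM pre-tx (log2 fold change 2.37 ± 0.579, edgeR adjusted p = 0.00776, 1.66 to 2.59 without 1 library). That call was lost with library totals and with the compared libraries alone, the lowest value over the 14 alternatives being 1.26. Between the genotypes, Cat-Tg CD4 pre-tx lay above the WT CD4 libraries labelled pre-tx without overlap, at a log2 fold change of 1.15 ± 0.395 that missed the threshold (edgeR adjusted p = 0.0502), and no interaction passed for Cish.

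The promoter of Cish is known as a STAT5 target, so the letters TTCNNNGAA, the core that STAT dimers bind, were searched in the RefSeq windows of 250 bases before to 50 after each gene start (build GRCm38.p6). The motif is its own reverse complement, so both strands are read at once. It is in the windows of 9.55% of 27025 genes and of 2 of the 10 members, Cish and Socs3. The stretches are shown because Cish carries the largest change and Socs3 is the other SOCS member with a match, with the motif in capitals. The Cish stretch lies at chr9:107296654-107296683 on the plus strand and begins just before the RefSeq start, its motifs starting at bases 1 and 12 of the transcript. The Socs3 stretch lies at chr11:117969501-117969530 on the minus strand, its motif starting 154 bases upstream of the start.
Cish: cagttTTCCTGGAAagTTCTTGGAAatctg
Socs3: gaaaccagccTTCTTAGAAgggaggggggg
The same motif with 1 more base in the spacer, the form STAT6 prefers, is in the windows of 8.01% of genes and in none of the members' windows. A match describes letters in the window, and its absence elsewhere concerns this window only. The Cish values include reads assigned to the processed transcript Cish-202, 0.836 to 57.7% of the gene's estimated count over the libraries (median 7.81%), beside the coding Cish-201 (median 89.3%).

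Socs1, the inhibitor that binds JAK kinases directly, was called higher after transplant in the CD4 arms of both genotypes. Cat-Tg CD4+ cells held 32.5, 20.5 and 20.9 CPM pre-tx and 195, 61.5 and 74.4 CPM post-tx, a log2 fold change of 1.88 ± 0.398 (edgeR adjusted p = 0.00186). Without Cat-Tg CD4 post-tx replicate 1, the library at 195 CPM, it was still called, the lowest value over the 6 fits that leave out 1 library being 1.1. WT CD4 post-tx held 67.1, 47.1 and 71.6 CPM against 16.9, 22.2 and 18.2 CPM in the WT CD4 libraries labelled pre-tx, a log2 fold change of 1.49 ± 0.394 (edgeR adjusted p = 0.0124) that was lost without WT CD4 pre-tx replicate 1 or 3. In CD8+ cells neither genotype passed: Cat-Tg held 28.7, 22.8 and 38.6 CPM pre-tx and 38.4, 54.9 and 53.5 CPM post-tx, and WT held 23.4, 25.2 and 18.7 CPM and 14.5, 110 and 43.6 CPM. The 10 myeloid markers summed to 2820 to 4080 CPM in Cat-Tg CD4 post-tx and 1230 to 2050 CPM in Cat-Tg CD4 pre-tx, and their part in the Cat-Tg CD4 changes was not tested.

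Socs3, which restrains the gp130 receptors and so STAT3, was not called in any comparison across transplant, except as lower in Cat-Tg CD8 with the compared libraries alone (-0.83). It was higher in Cat-Tg CD4 pre-tx, at 106, 77.1 and 81.8 CPM, than in the WT CD4 libraries labelled pre-tx, at 53.8, 48.6 and 25.9 CPM, without overlap (log2 fold change 1.15 ± 0.298, edgeR adjusted p = 0.0119). The call was lost without WT CD4 pre-tx replicate 3, at 0.69. Post-tx the CD4 groups did not overlap either, at 123, 77.1 and 92.1 CPM in Cat-Tg and 65, 47.5 and 63.3 CPM in WT, but the log2 fold change of 0.74 ± 0.295 did not pass (edgeR adjusted p = 0.126). In CD8+ cells the means were 83.9 ± 23.3 and 55.6 ± 8.36 CPM (SD, n = 3) in Cat-Tg pre-tx and post-tx and 49.5 ± 14.2 and 59.9 ± 42.5 CPM in WT.

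Between Cat-Tg and WT as a whole, 3 of 10 members were called, all of them higher in Cat-Tg and all in CD4 pre-tx (Stat4, Socs3 and Jak1), where 13.3% of all genes were called higher and 7.18% lower. DESeq2 also called Stat3 (-0.8) and Stat6 (-0.69) lower in Cat-Tg there, and the compared libraries alone called Stat6 lower (-0.7). Jak1 had a log2 fold change of 1.16 ± 0.342 there (edgeR adjusted p = 0.0244), with overlapping groups, and lost its call without Cat-Tg CD4 pre-tx replicate 3 or WT CD4 pre-tx replicate 1 or 3, down to 0.6. With the size factors of DESeq2 the split of all genes in this comparison went from 2284 higher and 1237 lower to 1772 and 1649, and Jak1 was not called. The B cell markers summed to 403 to 636 CPM in Cat-Tg CD4 pre-tx and 5310 to 7970 CPM in the WT CD4 libraries labelled pre-tx. Of the 12 T cell markers 11 were called higher in Cat-Tg in this comparison, with a median log2 fold change of 1.43. The part of these markers in the 3 calls was not tested. These comparisons share their WT pre-tx libraries with those across transplant.

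In the other 3 genotype comparisons edgeR called 0 members. In CD8 pre-tx, where 4.5% of genes were called higher and 4.47% lower, 0 members had an unadjusted p under 0.05, and limma-voom and DESeq2 also called 0; with library totals all genes split 317 higher and 1569 lower in place of 718 and 714. In CD8 post-tx, against 1.1% higher and 0.57% lower, 2 members had an unadjusted p under 0.05, limma-voom called 1 and DESeq2 2. Those were Stat3, above, and for DESeq2 also Jak1, at 517 to 1010 CPM in Cat-Tg over 146 to 410 CPM in WT (log2 fold change 1.5 ± 0.452, edgeR adjusted p = 0.0977); the split of all genes was 175 higher and 91 lower, and 360 and 67 with library totals. Without WT CD8 post-tx replicate 1 or Cat-Tg CD8 post-tx replicate 3, Jak1 and Stat3 were called by edgeR too, and without WT CD8 post-tx replicate 2 Stat3 was. In CD4 post-tx, against 3.7% higher and 6.47% lower, 3 members had an unadjusted p under 0.05, and limma-voom and DESeq2 called 0.

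**Figure D4:**
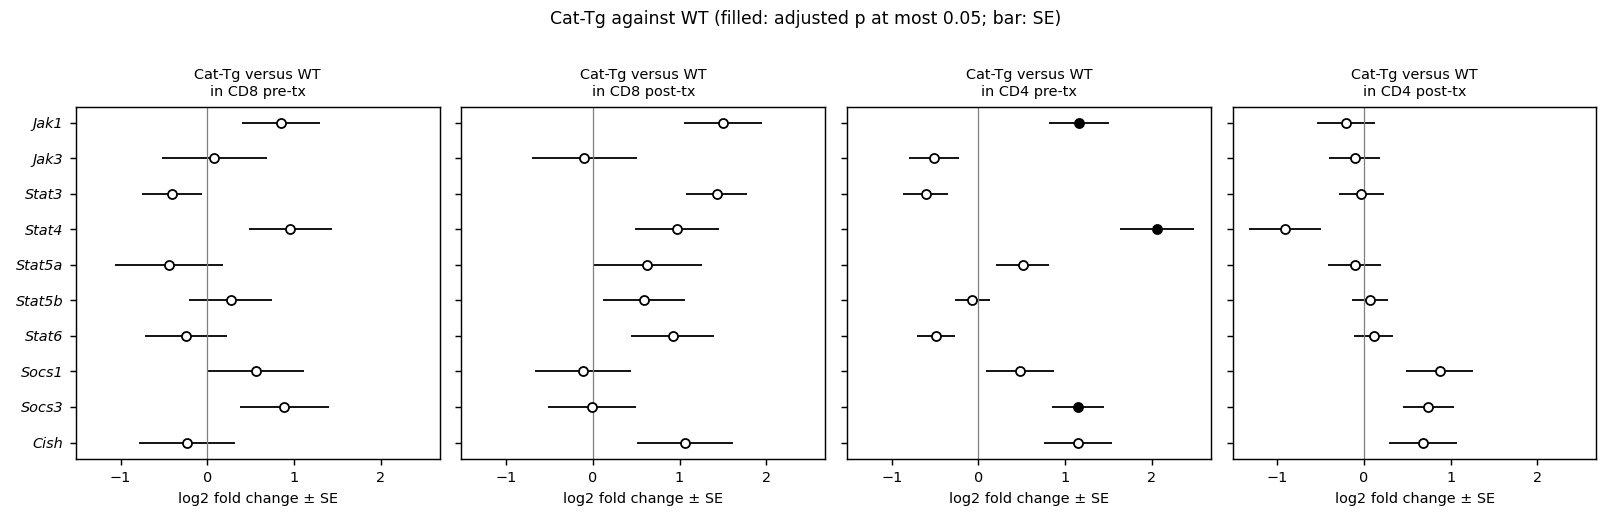
Points are log2 fold changes of Cat-Tg over WT for the 10 genes, bars their SE, and filled points those with an adjusted p of at most 0.05, in 4 panels for the 2 cell types and the 2 times. Filled points occur only in CD4 pre-tx, with Stat4 at 2.06, Jak1 at 1.16 and Socs3 at 1.15.

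CD8+ and CD4+ cells were compared within Cat-Tg pre-tx, Cat-Tg post-tx and WT post-tx. In Cat-Tg pre-tx edgeR called 0 members, against 0.367% of genes higher in CD8 and 1.16% lower, with 1 member at an unadjusted p under 0.05 and 0 called by limma-voom or DESeq2. That member was Cish, lower in CD8 (8.16 to 11.5 CPM) than in CD4 (15.6 to 38.3 CPM) without overlap, at a log2 fold change of -1.39 ± 0.498 (edgeR adjusted p = 0.242). In Cat-Tg post-tx edgeR called 0, against 1.49% higher and 4.51% lower, with 2 members at an unadjusted p under 0.05 and 0 called by limma-voom or DESeq2. Socs1 differed most, at 38.4 to 54.9 CPM in CD8 and 61.5 to 195 CPM in CD4 (log2 fold change -1.32 ± 0.497, edgeR adjusted p = 0.13). In WT post-tx 1 member was called, against 5.98% higher and 7.16% lower: Stat3 was lower in CD8, at 111, 274 and 200 CPM, than in CD4, at 408, 312 and 421 CPM (log2 fold change -1.03 ± 0.303, edgeR adjusted p = 0.0246). The 2 sides come from the same mice, and with the mouse, taken as the replicate number, as a block the difference was -1.09 and not called. The labels do not say that equal numbers mark the same mouse. The call was lost in 10 of 15 alternatives, the block, DESeq2, the fit of the compared libraries alone and the omission of WT CD8 post-tx replicate 1 or 3 or WT CD4 post-tx replicate 1 or 3 among them. The splits of all genes were 70 higher and 221 lower, 285 and 860, and 1141 and 1366 in the 3 comparisons, and with library totals 42 and 298, 143 and 1095, and 447 and 3404; with DESeq2's size factors the last was 1442 and 1120. Whether the genotype effect post-tx differed between CD8 and CD4 was also tested: 0 members were called, against 0.629% of all genes, with 3 at an unadjusted p under 0.05 and 0 by limma-voom or DESeq2. All genes called split into 57 higher and 63 lower there, and into 34 and 86 with DESeq2's size factors, 8 and 22 with counts from length-scaled TPM, and 209 and 39 with library totals.

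Of the other kinases and STATs, Jak2, Tyk2 and Stat2, which carries the interferon signal, are given here. Across transplant Stat2 and Tyk2 were higher in Cat-Tg CD8 and in Cat-Tg CD4, Stat2 was lower in WT CD8 and Jak2 was higher in WT CD4. Stat2 stood at 9.62, 14.4 and 17.9 CPM in Cat-Tg CD8 pre-tx and 55, 81.9 and 59.6 CPM post-tx, but at 75.5, 52 and 152 CPM in the WT CD8 libraries labelled pre-tx and 9.9, 14.4 and 18.7 CPM in WT CD8 post-tx. Its interaction in CD8+ cells was 4.81 ± 0.685 on the log2 scale (edgeR adjusted p = 0.000629). It uses the WT CD8 libraries labelled pre-tx, whose B cell markers summed to 4530 to 6400 CPM against 169 to 385 CPM in Cat-Tg CD8 pre-tx. Their part was not tested. Post-tx, Stat2 was higher in Cat-Tg than in WT in both CD8 (2.26 ± 0.482, edgeR adjusted p = 0.036) and CD4 (1.15 ± 0.338, edgeR adjusted p = 0.0414). In that CD4 comparison 7 of 10 myeloid markers were called higher in Cat-Tg (sums of 2820 to 4080 against 795 to 1440 CPM), as were 6 of 6 red cell markers (4210 to 24600 against 686 to 1170 CPM), and their part was not tested. In CD4+ cells Jak2 showed an interaction of -2.7 ± 0.553 (edgeR adjusted p = 0.00352), with 20.2 ± 7.47 and 18 ± 8.11 CPM (SD, n = 3) in Cat-Tg pre-tx and post-tx and 8.26 ± 1.82 and 43 ± 2.1 CPM in WT. This interaction too uses the mixed WT CD4 libraries labelled pre-tx, whose part was not tested.

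Of the 5 other SOCS genes, Socs2 was the member that passed each time a change was called: higher post-tx in Cat-Tg CD4 (2.91 ± 0.401, edgeR adjusted p = 6.95e-05) and WT CD4 (2.35 ± 0.395, edgeR adjusted p = 0.000531), and lower in CD8 than in CD4 in Cat-Tg post-tx and WT post-tx. Its interaction in CD8+ cells passed as well (2.87 ± 0.818, edgeR adjusted p = 0.0347). That interaction uses the mixed WT CD8 libraries labelled pre-tx, whose part was not tested. In Cat-Tg CD4 post-tx Socs2 stood at 118, 66.3 and 75 CPM, above WT at 25.8, 25.7 and 35.6 CPM (1.58 ± 0.38, edgeR adjusted p = 0.0157). Counts of the lists that follow stand against the same background: of all genes tested 8.72% were higher and 5.23% lower in Cat-Tg CD8, 13.2% and 10.4% in WT CD8, 16.2% and 28.9% in Cat-Tg CD4 and 14.7% and 9.61% in WT CD4. Of the 9 PIAS proteins and phosphatases, which dampen STAT and JAK activity, 2 were higher after transplant in Cat-Tg CD8 (Ptpn11 and Ptpn1), 1 was lower in WT CD8 (Pias1), 4 were higher and 1 lower in Cat-Tg CD4, and 3 were higher and 1 lower in WT CD4. Ptpn6, which encodes SHP-1 and is abundant in B cells too, was lower in Cat-Tg than in the WT pre-tx libraries in both CD8 (-1.38 ± 0.38, edgeR adjusted p = 0.0338) and CD4 (-1.84 ± 0.213, edgeR adjusted p = 4.96e-05). The part of the B cell content of the WT pre-tx libraries in this difference was not tested.

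Of 8 receptor genes of the common gamma chain family, 4 were higher and 2 lower after transplant in Cat-Tg CD8, 1 higher and 1 lower in WT CD8, 3 higher and 1 lower in Cat-Tg CD4, and 5 higher and 2 lower in WT CD4. The WT CD8 count, 2 of 8, and the Cat-Tg CD4 count, 4 of 8, are near the share of all genes over both directions. Il2rb, the signalling chain for IL-2 and IL-15, was higher in each arm, by 3.15 ± 0.523 in Cat-Tg CD8, 3.54 ± 0.532 in WT CD8, 1.87 ± 0.207 in Cat-Tg CD4 and 2.39 ± 0.211 in WT CD4 on the log2 scale. Il7r was lower post-tx in Cat-Tg CD8, at 57.2, 40 and 49.6 CPM after 380, 391 and 315 CPM (-3.04 ± 0.461, edgeR adjusted p = 0.000706). It was lower in Cat-Tg CD4 too (-1.6 ± 0.405, edgeR adjusted p = 0.00556), but in WT CD4 it was higher, at 95.8, 196 and 211 CPM after 13.7, 42.7 and 34.2 CPM in the mixed libraries labelled pre-tx (2.32 ± 0.417, edgeR adjusted p = 0.000893). Across transplant 12 of the 12 T cell markers were called higher in WT CD4, and 4 were called lower in Cat-Tg CD4. Their part in this contrast was not tested. Of the 7 tested receptor genes of the gp130, IL-10 and IL-12 families, 3 were higher and 2 lower in Cat-Tg CD8, 1 higher and 1 lower in WT CD8, 3 higher and 2 lower in Cat-Tg CD4, and 2 higher and 2 lower in WT CD4, the WT CD8 count again being near the share of all genes. Il12rb2, the IL-12 receptor chain upstream of STAT4, was higher post-tx in Cat-Tg CD8 (6.37 ± 1.05, edgeR adjusted p = 0.0013), Cat-Tg CD4 (4.09 ± 0.507, edgeR adjusted p = 3.19e-05) and WT CD4 (4.61 ± 0.516, edgeR adjusted p = 1.33e-05). Il6ra was lower in both CD8 arms, from a mean of 31.8 to 2.12 CPM in Cat-Tg and from 60.1 to 2.69 CPM in WT.

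The 4 interferon receptor genes moved in both directions: across transplant 1 was higher and 2 lower in Cat-Tg CD8, 2 were lower in WT CD8, 1 was higher and 1 lower in Cat-Tg CD4, and 1 was higher and 2 lower in WT CD4. Ifngr1 rose in the 3 arms other than WT CD8, and Ifngr2 fell in all 4, for example from 59.9, 49.5 and 83.4 CPM to 1.24, 1.2 and 2.95 CPM in Cat-Tg CD8. Of 12 ligand genes, 5 could be tested in CD8 and 11 in CD4. Across transplant 1 was higher and 0 lower in Cat-Tg CD8, 2 higher and 1 lower in WT CD8, 2 higher and 1 lower in Cat-Tg CD4 and 5 higher and 1 lower in WT CD4. Ifng, made by activated T cells, was higher post-tx in all 4 arms, and post-tx it was lower in Cat-Tg CD4 (16.7, 23.2 and 27.9 CPM) than in WT CD4 (86.4, 59.5 and 77.5 CPM), at -1.73 ± 0.392 (edgeR adjusted p = 0.0112). Of 16 genes known as STAT targets in lymphocytes, 7 were higher and 0 lower after transplant in Cat-Tg CD8, 5 higher and 3 lower in WT CD8, 12 higher and 0 lower in Cat-Tg CD4 and 10 higher and 0 lower in WT CD4, with median log2 fold changes of 1.23, 0.46, 1.7 and 1.08, against -0.26, -0.23, -0.38 and -0.13 over all genes. Gzmb, Tbx21 and Gata3, the effector protease and the T helper regulators, were among them in both CD4 arms and in Cat-Tg CD8.

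The protein-coding genes whose log2 CPM followed each member most closely over the 24 libraries were found by Pearson's r, as a description without a test, since the libraries share groups, depth and composition. For Jak3 they were Tap1 (0.978), Tmem109 (0.973) and Ptbp1 (0.972), for Jak1 Hnrnpf (0.928), Prkacb (0.927) and Arhgef3 (0.926), for Stat3 Wasf2 (0.954), Flna (0.947) and L1cam (0.946), and for Stat4 Ptpn22 (0.957), Etfa (0.941) and Sec22b (0.937). For Stat5a the third closest was Stat5b (0.887), after Psmf1 (0.893) and Rps6ka1 (0.891), and for Stat5b they were Arid5a (0.909), Ppif (0.9) and Vps37c (0.897). Stat6 was followed by Ints1 (0.932), Slc44a2 (0.918) and Supt5 (0.905), Socs1 by Ddit4 (0.909), Gm8909 (0.891) and Lgals3bp (0.885), and Cish by 9230102O04Rik (0.93), Ppm1j (0.925) and Gpr25 (0.924). Socs3 had the least close neighbours, Cd6 (0.797), Aqp9 (0.729) and Slc39a11 (0.724).

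**Figure D5:**
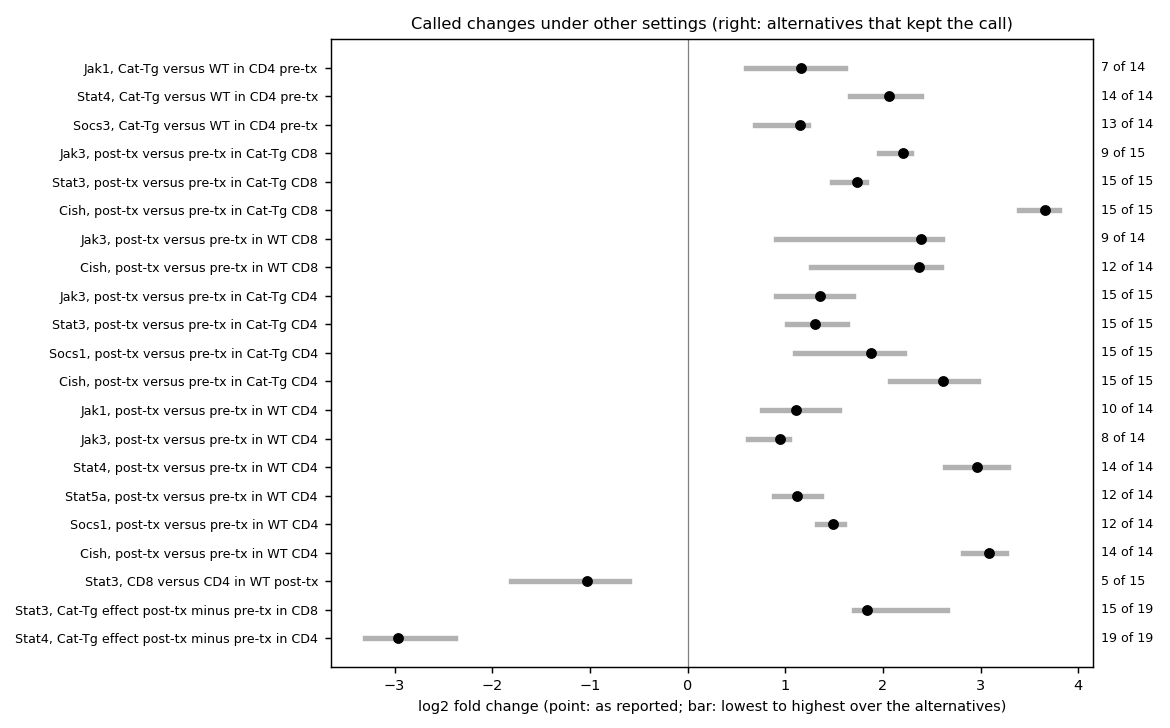
Each point is the log2 fold change of a called member change as reported, each bar the lowest to the highest value over the alternative settings, and the numbers at the right the alternatives that kept the call. Of 21 called changes none crosses 0; Stat3 in CD8 versus CD4 of WT post-tx kept its call in 5 of 15, and Cish in Cat-Tg CD8, Cat-Tg CD4 and WT CD4 kept it in all.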

How the data were processed

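Bulk RNA of sorted mouse T cells was sequenced after SMART-Seq HT amplification and Nextera XT library preparation. The authors quantified transcripts with kallisto 0.46.2 and deposited, per the file headers, an estimated count, an effective length and a TPM for each of 117497 transcripts in each of 24 libraries. The submitters' notes also name limma and mm9, and the files hold no coordinates. Estimated counts were summed to gene symbols through GENCODE M21, which matched 116374 transcripts by identifier, 13 of them at the same version, and at least 99.57% of the counts, and were rounded to whole numbers. The authors' TPM values were summed likewise and used for levels between genes and an alternative, and transcript shares are of the estimated counts.

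Genes with over 1 CPM in at least 3 libraries were fitted with edgeR 4.0.16 (R 4.3.3; TMM, robust quasi-likelihood), in CD8 and CD4 libraries separately for genotype, time and their interaction, and in all 24 for CD8 against CD4. Calls used a Benjamini-Hochberg adjusted p of at most 0.05. The study's model used limma on TPM, which is why limma-voom 3.58.1 was run as an alternative beside DESeq2 1.42.0, DESeq2's size factors, no filter, counts from length-scaled TPM, a replicate block, a log2 fold change of at least 1, the compared libraries alone and each library left out. Scaling by library totals and leaving out the WT pre-tx libraries were added after the data were seen. The fit was tested on simulated data. Replicate libraries were checked for duplicates and none was found. Counting error alone sets the depth floors given.

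The members and the gene lists were chosen with earlier results of these data known. All 10 members were described in every group; from each other list the counts (not for the other kinases and STATs, of which a part is not reported here) and at most 3 called genes with the smallest adjusted p in a comparison were named, and the 3 protein-coding genes with the highest Pearson's r over the libraries for each member (log2 CPM, prior count 2). Promoter windows are RefSeq's, on GRCm38.p6, and all 10 members matched by symbol. In the separate CD8 and CD4 fits, p-values measure the spread between mice of these groups, donors pre-tx and recipients post-tx. Whether the recipients of a group shared donors is not stated. The fit of all 24 libraries took CD8 and CD4 libraries of the same mouse as independent. The p-values of that fit do not measure the spread of differences within a mouse.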

Additional observations from a re-analysis of the deposited data

Results flagged for a closer look

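The Cat-Tg effect on Stat3 in CD8+ cells differed between the times, by 1.84 ± 0.494 on the log2 scale (edgeR interaction, adjusted p = 0.0264). Stat3 rose after transplant in Cat-Tg CD8 and overlapped between the times in WT CD8. Post-tx alone, Stat3 did not pass by edgeR (log2 fold change 1.43, edgeR adjusted p = 0.054), though limma-voom and DESeq2 called it. The Stat3 interaction call was lost in 4 of 19 alternatives, each leaving out 1 library. The Cat-Tg effect on Stat4 in CD4+ cells differed between the times, by -2.97 ± 0.595 (edgeR interaction, adjusted p = 0.00305), with Cat-Tg above the WT CD4 libraries labelled pre-tx before transplant and below WT after it. Post-tx alone, Stat4 did not pass (log2 fold change -0.91, edgeR adjusted p = 0.185). Cat-Tg CD4 post-tx replicate 1 stood at 47.8 CPM beside 166 and 176 CPM. Both interactions use WT pre-tx libraries whose Cd8a share and B cell markers went against their labels, and the part of that was not tested.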

How the results depend on the processing

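Of 312 alternatives to the 21 called member changes, 263 kept the call, 49 lost it and 0 reversed. The number of called members moved by over 1.5 times as follows, and the cause was not tested. For Cat-Tg against WT in CD8 post-tx, 0 became 1 with limma-voom, no filter, length-scaled TPM or library totals and 2 with DESeq2. In CD4 pre-tx 3 became 5 with DESeq2, the added Stat3 and Stat6 being lower in Cat-Tg. Across transplant, 3 became 7 in Cat-Tg CD8 with the compared libraries alone (Socs3 among them, lower), 2 became 1 with limma-voom and 0 with the compared libraries alone in WT CD8, and 4 became 7 in Cat-Tg CD4 with the WT pre-tx libraries left out. With library totals the WT CD8 count was 3, but of other members (Jak1, Stat3 and Stat6, lower). For CD8 against CD4, 0 became 1 in Cat-Tg post-tx with library totals, and in WT post-tx 1 became 0 with DESeq2, its size factors, no filter, length-scaled TPM or the compared libraries alone, 2 with the WT pre-tx libraries left out and 6 with library totals. With library totals the interaction in CD8 went from 1 to 2 and that between cell types from 0 to 1. In CD4 the interaction went from 1 to 2 with limma-voom.

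CD8 and CD4 libraries come from the same mice, but no label ties a replicate number to a mouse. Over the comparisons of CD8 with CD4, the deviations of libraries of equal number correlated weakly, at -0.139 to 0.16. With the replicate block the count went from 1 to 0 for CD8 against CD4 in WT post-tx. In the separate CD8 and CD4 fits the block joined libraries of equal number across genotypes and times, which are different mice. There the count went from 0 to 1 in CD4 post-tx and from 1 to 2 in the CD4 interaction, which does not bear on the pairing of CD8 with CD4.

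With each library left out in turn the counts ran from 0 to 2 in CD8 post-tx, 1 to 4 in CD4 pre-tx, 2 to 2 across transplant in Cat-Tg CD8, 1 to 5 in WT CD8 and 2 to 6 in WT CD4, 0 to 2 for CD8 against CD4 in WT post-tx, 0 to 1 for the CD8 interaction and 1 to 2 for the CD4 interaction. The lowest counts came without WT CD4 pre-tx replicate 3 (CD4 pre-tx, Stat4 alone) and without WT CD4 pre-tx replicate 1 or 3 (WT CD4, Stat4 and Cish), and the highest without WT CD8 post-tx replicate 1 (WT CD8, Jak1 among them, lower). A fit of the compared libraries alone has no value for interactions that use every library of their fit.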
